A study of Mus musculus with 4 samples.

Results

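Cadherins and protocadherins are the subject here: 46 of the 12814 genes for which RNA sequencing of sorted inner-ear cells gave a value. They were chosen by gene symbol, as every row named Cdh with a number, Pcdh, *Fat1* to *Fat4* or Dchs, which matched 49 rows. The 3 genes *Cdh1*, *Cdh23* and *Pcdh15* were left out by name, and the rule itself uses no measured value. Of the 46 members, 25 are non-clustered genes and 21 are rows of the clustered protocadherins. The cells were sorted from newborn mice of the *Atoh1/nGFP* genotype (strain background C57BL/6), in which an *Atoh1* enhancer drives nuclear green fluorescent protein (GFP) in hair cells (HCs), the mechanosensory cells of the ear. Flow cytometry separated HCs, positive for GFP and for the epithelial surface protein CD326, from epithelial non-sensory cells (ENSCs), positive for CD326 alone. Each population was taken from the cochlea, which serves hearing, and from the vestibular system, which serves balance, and ears of several mice were pooled. Each of the 4 populations had 1 column in the table, called its library here. The series' design mentions triplicates, so a column may be a single library, a pool or a mean, which the sources used here do not settle. No value has a replicate error, no test was run and no p-values are given.

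Cadherins are calcium-dependent adhesion proteins whose extracellular repeats bind partners on neighbouring cells. Classical cadherins anchor adherens junctions to actin through catenins, and type I members bind strongly while type II members are known for sorting cells and axons. Fat and Dachsous proteins are giant cadherins that bind each other across cell borders and act in planar polarity and growth control. Protocadherins adhere more weakly and are best known from the nervous system. The non-clustered delta protocadherins each have their own promoter, and the clustered genes give every neuron its own combination of isoforms. In the ear epithelium, HCs and their neighbours form a mosaic held together by cadherin junctions, and the tip links of HC bundles are built from the left-out pair *Cdh23* and *Pcdh15*.

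The values are quantile-normalized signals with a floor of 20, so each column had the same sum of 7830343 and the same median of 120, and the read depth of a library cannot be read from it. At the bottom of a column the values only followed a gene's level in the other libraries. This tied range reached 24.25 in cochlear HCs, 22.75 in cochlear ENSCs, 30.5 in vestibular HCs and 20 in vestibular ENSCs, and it held 9, 5, 12 and 3 members. A fold against a value inside it is given as at least the fold against its top. All 10 HC marker genes exceeded ENSCs at least 3-fold in each organ. All 5 epithelial marker genes, among them *Epcam*, which encodes CD326, were at least 3-fold lower in HCs of both organs, with summed signals of 1628.5 in cochlear HCs, 6035 in cochlear ENSCs, 1805.25 in vestibular HCs and 20378.5 in vestibular ENSCs. In such bulk libraries, fewer cells of a type and less RNA per cell cannot be told apart.

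The first question was how the adhesion genes of HCs differ from those of the surrounding epithelium. In the cochlea, 18 of the 46 members (39.1%) were at least 3-fold lower in HCs than in ENSCs, where 9.2% of all genes were, and 3 members (6.52%) were at least 3-fold higher, where 8.39% of all genes were. In the vestibular system, 10 members (21.7%, against 14.3% of all genes) were lower in HCs and 9 (19.6%, against 13.8%) were higher. The median log2 ratio of the members was -1.02 in the cochlea, where 34 of 46 lay below 0 and the median of all genes was 0. In the vestibular system the members' median was 0.14, with 23 above 0 and 22 below, and that of all genes was -0.00. Across the 4 comparisons of libraries, 33 members (71.7%) were at least 3-fold apart in at least 1, as were 42.1% of all genes.

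**Figure D1:**
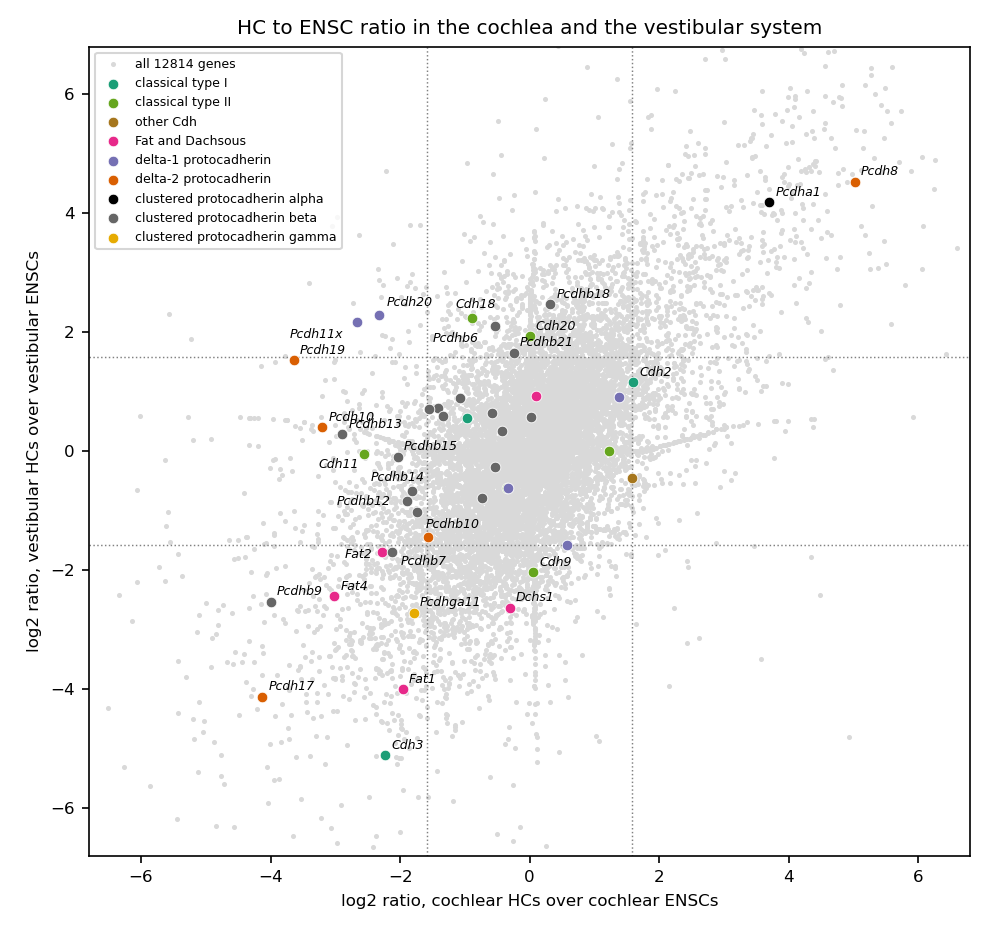
Log2 ratio of HC over ENSC signal in the cochlea (horizontal axis) and the vestibular system (vertical axis), 1 library per population. Coloured points are the 46 members by class, grey points all 12814 genes (26 lie beyond the axes), and dotted lines mark 3-fold. *Pcdh8* and *Pcdha1* stand alone at the upper right, 8 members share the lower left, and *Pcdh11x* and *Pcdh20* lie in the upper left.

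Read in both organs together, 2 members, *Pcdh8* and the *Pcdha1* row, were at least 3-fold higher in HCs of both (4.35%, against 4.99% of all genes). The 8 members *Cdh3*, *Fat1*, *Fat2*, *Fat4*, *Pcdh17*, *Pcdhb7*, *Pcdhb9* and the *Pcdhga11* row were lower in HCs of both (17.4%, against 4.66%). The vestibular calls of *Fat2* and *Pcdhb7* rest on HC values in the tied range and were lost when that range was set to its top. A further 8 were lower in HCs of the cochlea only (17.4%, against 4.25%) and 2, *Cdh9* and *Dchs1*, in those of the vestibular system only (4.35%, against 9.57%). Upward, *Cdh2* passed in the cochlea only (2.17%, against 3.29%) and 5 members in the vestibular system only (10.9%, against 8.46%), and 18 members passed in neither organ (39.1%, against 64.4%). *Pcdh11x* and *Pcdh20* went in opposite directions in the organs (4.35%, against 0.406%). The HC to ENSC contrasts of the organs share no library.

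The classical type I cadherins, the main junctional class, split by gene. *Cdh2*, which encodes N-cadherin of neural and other junctions, had a signal of 1538 in cochlear HCs, 510 in cochlear ENSCs, 1313.5 in vestibular HCs and 586 in vestibular ENSCs. It was high in HCs of both organs, 3.02-fold above ENSCs for the cochlea and 2.24-fold for the vestibular system. The cochlear ratio lay close to the 3-fold threshold and fell under it when ratios were centred on their median (log2 1.58). Of the stretches of 50 nt in *Cdh2* exons, 82.2% occurred at a single place in the genome, the lowest share of any member. A 50-nt read from the rest cannot be placed uniquely when taken alone, without its mate.

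*Cdh3*, which encodes P-cadherin of epithelia, showed the opposite order. Its signal was 79.75 in cochlear HCs, 375 in cochlear ENSCs, 54 in vestibular HCs and 1869 in vestibular ENSCs. Both HC libraries were low, and ENSCs exceeded them 4.70-fold in the cochlea and 34.6-fold in the vestibular organ, the widest downward HC to ENSC log2 ratio among the members (-5.11). Between the ENSC libraries it was 4.98-fold higher in the vestibular system. The next gene on chromosome 8, the left-out *Cdh1*, which encodes E-cadherin, had signals of 6003, 4853, 178.5 and 3308 in the same order, so it was high in cochlear HCs, where *Cdh3* was low. The epithelial marker sum given above moved the same way as *Cdh3* in all 4 libraries except that it was slightly higher in vestibular than in cochlear HCs, and its part in the result was not tested. *Cdh4*, which encodes R-cadherin, was not 3-fold apart in any comparison, with signals of 324.5, 635.5, 593 and 402.

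Among the 6 type II cadherins, *Cdh11* was the strongest per kilobase of exon in all 4 libraries. This gene, known from mesenchyme and bone-forming cells, gave 461.5 as its cochlear HC signal and 2717.5 in cochlear ENSCs, with 3066 in vestibular HCs and 3155 in vestibular ENSCs. Only the cochlear HC library was low: it was 5.89-fold under cochlear ENSCs and 6.64-fold under vestibular HCs, while the vestibular libraries differed 1.03-fold. Per kilobase of exon, *Cdh11* led the members in cochlear ENSCs (signal 645 per kb) and vestibular ENSCs (748 per kb). Of the mesenchymal list, 6 genes had a row. In the cochlea *Col1a2* and *Dcn* were at least 3-fold lower in HCs and *Pdgfra* higher, and in the vestibular system *Col1a1*, *Col1a2*, *Col3a1* and *Dcn* were lower and *Pdgfra* higher. Between the ENSC libraries *Col1a2* and *Dcn* were higher in the cochlea and *Col1a1* and *Col3a1* lower. The sums were 777 in cochlear HCs, 3625 in cochlear ENSCs, 360 in vestibular HCs and 1855.5 in vestibular ENSCs. The sum was low in vestibular HCs, where *Cdh11* was high, and the part of these genes in the cochlear difference was not tested.

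The other type II genes were weak. *Cdh18*, a brain cadherin, reached 145 in vestibular HCs and lay at 26.5 in cochlear HCs, 49.25 in cochlear ENSCs and 30.75 in vestibular ENSCs. *Cdh20* was at 76.25 in vestibular HCs and at the floor of 20 in the other libraries. Thus vestibular HCs held the highest value of both genes, 4.72-fold and at least 3.81-fold above vestibular ENSCs. *Cdh9*, known from hippocampal synapses, was high only in vestibular ENSCs, at 96 against values of 20.5 to 23.5 elsewhere. *Cdh8* was above the floor only in cochlear HCs (46.75), and *Cdh24* stayed between 20 and 31.5. *Cdh13*, which encodes T-cadherin with a lipid anchor in place of a cytoplasmic tail, had 59.75 in cochlear HCs and 27.25 or less in the rest.

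**Figure D2:**
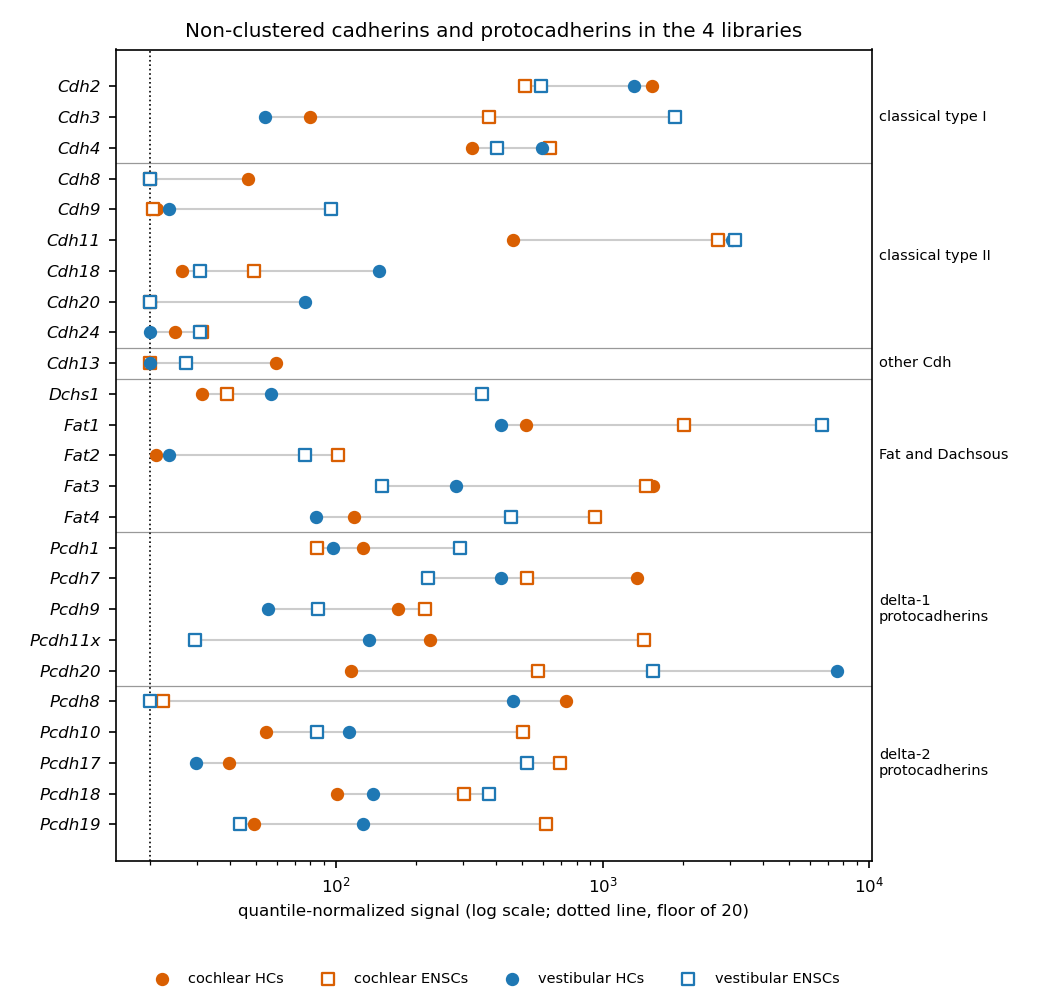
Quantile-normalized signal of the 25 non-clustered members on a log axis, 1 point per library, grouped by class, with HCs as filled circles, ENSCs as open squares, the cochlea in orange and the vestibular system in blue. The filled circles of *Pcdh8* lie at 462 and 728 with both squares near 20, those of *Pcdh17* lie at 39.5 or less with both squares at 519.5 or more, and *Pcdh20* spreads from 113.5 to 7597.

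The Fat and Dachsous genes were mostly lower in HCs, 3 of 5 for the cochlea (against 9.2% of all genes) and 4 of 5 for the vestibular system (against 14.3%), where the call of *Fat2* rests on a value in the tied range. *Fat1*, which acts on actin at cell contacts, had a signal of 517 in cochlear HCs, 2014 in cochlear ENSCs, 416.5 in vestibular HCs and 6668 in vestibular ENSCs. The HC libraries were 1.24-fold apart and the ENSC libraries 3.31-fold, which gave a 3.90-fold lower value in HCs of the cochlea and a 16.01-fold lower value in those of the vestibular system. *Fat4*, the receptor that pairs with *Dchs1*, stood at 116 in cochlear HCs, 938 in cochlear ENSCs, 84.25 in vestibular HCs and 455 in vestibular ENSCs. It was thus 8.07-fold and 5.40-fold lower in HCs, with the higher ENSC value in the cochlea.

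*Dchs1*, the ligand of that pair, was distributed differently. Its signal was 31.5 in cochlear HCs, 39 in cochlear ENSCs, 57 in vestibular HCs and 354 in vestibular ENSCs. Only vestibular ENSCs were high, 6.21-fold above vestibular HCs and 9.07-fold above cochlear ENSCs, so the cochlear ENSC library with the highest *Fat4* had little *Dchs1*. Corrected for the trends of the ratios on exonic length and GC content, the vestibular log2 ratio of *Dchs1* moved from -2.63 to -1.61, just past the threshold, and that of the ENSC comparison from -3.18 to -2.26. *Fat2*, known from the cerebellum, had signals of 21, 102, 23.5 and 76.25 in the order of libraries used above. Both HC values lay in their tied ranges, which leaves ENSCs higher by at least 4.20-fold in the cochlea and 2.50-fold in the vestibular organ.

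*Fat3*, which shapes neuronal processes in the retina, followed the organ and not the cell population. Its signal was 1548.5 in cochlear HCs and 1452 in cochlear ENSCs against 282 in vestibular HCs and 148 in vestibular ENSCs. Cochlear values were 5.50-fold higher in HCs and 9.80-fold higher in ENSCs, and no other member passed 3-fold in this direction in both populations (2.17%, against 1.14% of all genes). None did so in the reverse direction (0%, against 1.23%) or in opposite directions in the populations (0%, against 0.398%). Within an organ its HC and ENSC values differed 1.07-fold and 1.90-fold.

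The genes grouped here as delta-1 protocadherins held the pair with opposite ratios in the organs. *Pcdh20* had a signal of 113.5 in cochlear HCs, 572 in cochlear ENSCs, 7597 in vestibular HCs and 1552 in vestibular ENSCs. Vestibular HCs were far above the other libraries and cochlear HCs were lowest, 66.9-fold apart, the largest difference of any member in any comparison. Cochlear HCs were 5.04-fold under their ENSCs and vestibular HCs 4.90-fold over theirs, a difference of 4.62 between the log2 ratios. Per kilobase of exon its vestibular HC signal (1451 per kb) was the highest of all members in any library, ahead of *Cdh11* in the same cells (727 per kb).

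*Pcdh11x*, an X-linked gene of the developing brain, was ordered differently. Its signal was 225 in cochlear HCs, 1432 in cochlear ENSCs, 133 in vestibular HCs and 29.5 in vestibular ENSCs. The ENSC libraries held both the highest and the lowest value, 48.5-fold apart, and the HC libraries lay between them. Cochlear HCs were 6.36-fold lower than their ENSCs and vestibular HCs 4.51-fold higher than theirs. Across all genes above the floor, the vestibular HC to ENSC ratio fell with the GC content of the exons (Spearman rho -0.395 across 10358 genes, which are not independent replicates), and the cochlear ratio hardly did (rho -0.040). *Pcdh11x* had the lowest GC content of the members, 38.1%, and with ratios corrected for length and GC its vestibular log2 ratio was 1.27 in place of 2.17, under the threshold, while the cochlear ratio was -2.82. Its cochlear to vestibular ENSC log2 ratio was 4.65 in place of 5.60. Over the 46 members the correction moved 11 vestibular HC to ENSC ratios and 12 ENSC ratios by more than 1.5 times, and 0 ratios of the other 2 comparisons. Among those 11, *Cdh3* (log2 -4.52), *Pcdh8* (5.76) and *Pcdhb18* (1.89) stayed past the threshold, as did *Dchs1*.

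The other delta-1 genes differed less. *Pcdh7* was highest in cochlear HCs, at 1343, against 518.5 in cochlear ENSCs, 416 in vestibular HCs and 221.5 in vestibular ENSCs. Its HC value was above the ENSC value in each organ, under 3-fold in both, and cochlear HCs were 3.23-fold above vestibular HCs. Per kilobase of exon, *Pcdh7* led all members in cochlear HCs (217 per kb), followed by *Cdh2* (191 per kb) and *Pcdh8* (182 per kb). *Pcdh9* was weaker and also higher in the cochlea, with 170.2 and 215 in cochlear HCs and ENSCs against 55.5 and 85.25 in the vestibular libraries. *Pcdh1*, known from airway epithelium, was highest in vestibular ENSCs (291), against 126, 84.75 and 97 in the other libraries. The vestibular difference of 2.997-fold lay under the threshold and shrank with the length and GC correction (log2 -0.46 in place of -1.58).

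The delta-2 protocadherins held the widest cochlear HC to ENSC ratio in each direction. *Pcdh8*, which is induced by neuronal activity and takes N-cadherin off the cell surface, had a signal of 728 in cochlear HCs, 22.5 in cochlear ENSCs, 461.5 in vestibular HCs and 20 in vestibular ENSCs. Both HC libraries were high and both ENSC values lay in their tied ranges, so the excess in HCs was at least 31.99-fold for the cochlea and at least 23.1-fold for the vestibular system. *Pcdh17*, which recruits actin regulators to contacts between axons, ran the other way, with 39.5 in cochlear HCs, 691.5 in cochlear ENSCs, 29.75 in vestibular HCs and 519.5 in vestibular ENSCs. Both ENSC libraries were high, 17.5-fold above cochlear HCs and at least 17.03-fold above vestibular HCs. The log2 ratio of the deposited signals was -4.13 in each organ, where the vestibular one rests on an HC value in the tied range.

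*Pcdh8*, *Pcdh17*, *Pcdh20* and *Pcdh9* lie in that order on chromosome 14, within 14121 kb of the mm9 assembly and with 6 other rows of the table between them, yet each had a different order of libraries. The promoters of 3 of them are printed because they give neighbouring genes with opposite ratios: *Pcdh8* (chr14:79771263-79771562, minus strand), *Pcdh17* (chr14:84443313-84443612, plus strand) and *Pcdh20* (chr14:88471347-88471646, minus strand). They are RefSeq windows of the GRCm38.p6 build from 250 bases before to 50 after a gene's start, written 5′ to 3′ along the gene. Capitals mark the letters CCAAT or TATAAA on either strand (ATTGG or TTTATA where the match is on the other strand).
Pcdh8: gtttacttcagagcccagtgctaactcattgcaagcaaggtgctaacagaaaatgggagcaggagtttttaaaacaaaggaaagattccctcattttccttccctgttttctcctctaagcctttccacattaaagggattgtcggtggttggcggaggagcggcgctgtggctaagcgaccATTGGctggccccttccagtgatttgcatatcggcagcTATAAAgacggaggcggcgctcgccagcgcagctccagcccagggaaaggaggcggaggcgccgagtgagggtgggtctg
Pcdh17: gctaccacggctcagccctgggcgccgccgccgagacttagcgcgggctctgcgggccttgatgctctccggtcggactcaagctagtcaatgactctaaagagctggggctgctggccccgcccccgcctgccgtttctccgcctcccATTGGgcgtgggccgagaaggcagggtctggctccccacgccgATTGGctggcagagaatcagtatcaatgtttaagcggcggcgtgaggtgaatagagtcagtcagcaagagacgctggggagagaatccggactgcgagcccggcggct
Pcdh20: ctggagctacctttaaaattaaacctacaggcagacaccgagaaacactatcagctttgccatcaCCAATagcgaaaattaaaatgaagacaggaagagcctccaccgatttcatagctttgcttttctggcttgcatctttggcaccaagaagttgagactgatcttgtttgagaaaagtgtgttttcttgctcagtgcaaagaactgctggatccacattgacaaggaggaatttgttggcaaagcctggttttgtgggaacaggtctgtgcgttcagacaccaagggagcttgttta
All 3 windows held CCAAT, with 2 matches in *Pcdh17* and 1 in each of the others, and *Pcdh8* also held TATAAA. An entry was found for 17 of the 46 members. Among those, CCAAT was found in 11 (64.7%), against 41.1% of 27025 mouse genes searched in windows of the same length, and TATAAA in 1 (5.88%, against 15.7%). The E-box CAGCTG, of the kind bound by *Atoh1*, was in 1 (*Cdh9*, 5.88%, against 18.3%). The letters GTTGCC, a part of the X-box bound by RFX factors, were found for 0 of the 17 genes, against 14.1% of all genes. The median GC content of the 18 member windows was 61.3%, against 52.7% over all windows. A match or its lack describes these letters only, and their part in the ratios was not tested.

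The other 3 delta-2 genes were high in 1 or both ENSC libraries. *Pcdh10*, which guides striatal axons, had a signal of 54.75 in cochlear HCs, 503 in cochlear ENSCs, 112 in vestibular HCs and 84.5 in vestibular ENSCs. *Pcdh19*, an X-linked gene known from epilepsy, had 49.25, 614, 126 and 43.5 in the same order. Cochlear ENSCs were the only high library of both genes: cochlear HCs were 9.19-fold lower for *Pcdh10* and 12.5-fold lower for *Pcdh19*, and vestibular ENSCs were 5.96-fold and 14.1-fold lower. Within the vestibular system *Pcdh19* was instead 2.90-fold higher in HCs, so its log2 ratios differed by 5.17 between the organs, the most of any member. That rank rests on weak vestibular values. With a floor of 100 its log2 ratios were -2.62 (cochlea) and 0.33 (vestibular system), while those of *Pcdh20* stayed at -2.33 and 2.29. Of 10 supporting cell markers, 4 were at least 3-fold lower in cochlear HCs than in cochlear ENSCs and 0 higher, and 4 were higher and 1 (*Otog*) lower in cochlear than in vestibular ENSCs. Their sum was 98993 in cochlear ENSCs, 16168 in cochlear HCs, 13851 in vestibular HCs and 23519 in vestibular ENSCs, and without *Epyc*, which made up most of the first value, it was 36964, 15404.5, 13641 and 22399 in that order. Their part in these values was not tested. *Pcdh18* was high in ENSCs of both organs, at 301 and 376, against 101 and 137.5 in HCs. Its ratios of 2.980-fold and 2.74-fold were under the threshold, which the cochlear one passed with centring and both passed with the length and GC correction (log2 -1.60 and -1.71).

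The clustered protocadherins lie side by side on chromosome 18. In the alpha and gamma clusters, many variable first exons are each spliced to shared constant exons, and the beta genes are mostly single exons with no constant part. The table held 1 row for alpha and 1 for gamma, and in the mm9 annotation each of their Ensembl identifiers spans many exons of its cluster and has another symbol, *Pcdha11* for alpha and *Pcdhgc5* for gamma. The row named *Pcdha1* covers 24688 exonic bases from 37089939 to 37347311 and the row named *Pcdhga11* covers 28980 bases from 37833989 to 38001527. Isoforms within a row can therefore not be told apart. The rows hold 13 (alpha) and 11 (gamma) blocks of exons and need not cover every isoform: *Pcdha3*, for one, is annotated apart from the alpha row and is not analysed here.

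The alpha row had a signal of 673 in cochlear HCs, 51.75 in cochlear ENSCs, 582 in vestibular HCs and 32 in vestibular ENSCs. Both HC libraries were high, 13.01-fold and 18.2-fold above the ENSCs of their organ. Of 6 neuronal markers with a row, *Nefl*, *Nefm* and *Snap25* exceeded ENSCs at least 3-fold in HCs of both organs, *Isl1* did so only in the vestibular system, and *Stmn2* and *Ntrk3* in neither. In the cochlea the log2 ratios of the last 3 lay below 0. The sums were 9399.75 in cochlear HCs, 5255 in cochlear ENSCs, 9722 in vestibular HCs and 441.5 in vestibular ENSCs, and without *Isl1* they were 5718, 278, 6765 and 102.5. The part of these markers in the alpha and *Pcdh8* ratios was not tested. The gamma row had 327 in cochlear HCs, 1129.5 in cochlear ENSCs, 337 in vestibular HCs and 2214 in vestibular ENSCs. It was thus 3.46-fold and 6.57-fold lower in HCs, with HCs of the organs almost equal. The alpha row had log2 ratios of 3.70 (cochlea) and 4.18 (vestibular system), and those of the gamma row were -1.79 and -2.72. These rows, from the clusters at either end of the array, thus had opposite signs in each organ. Of the 50-nt stretches, 90.2% of the alpha row and 98.1% of the gamma row were unique in the genome, and 11.3% of the alpha row's exonic bases were shared with other annotated genes.

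**Figure D3:**
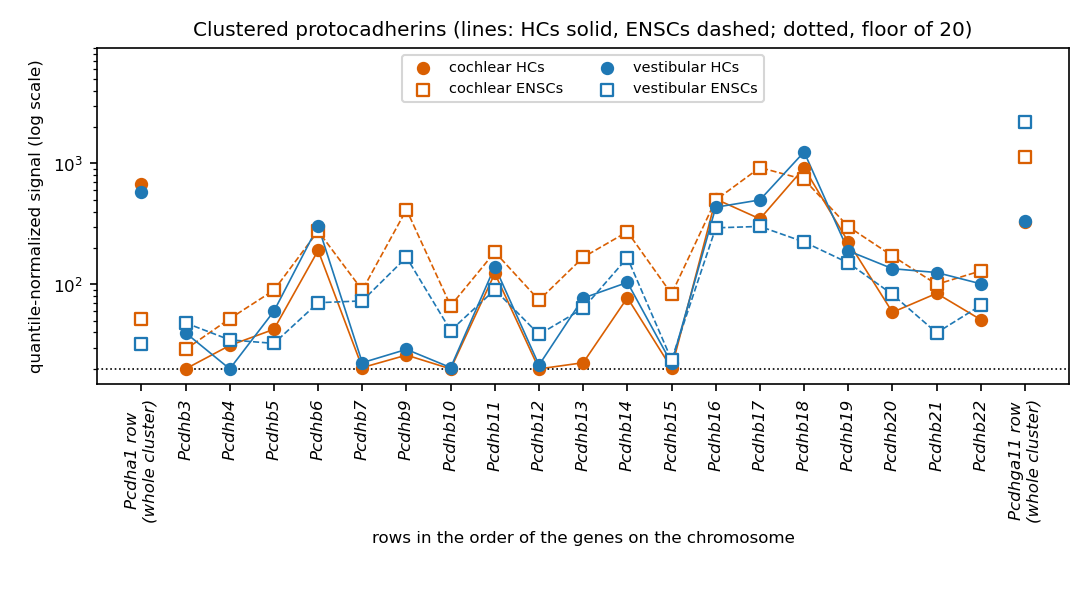
Quantile-normalized signal (log axis) of the 21 rows of the clustered protocadherins in the order of the genes on the chromosome, 1 point per library; lines join the 19 Pcdhb genes only. The alpha row has the circles of both HC libraries on top and the gamma row the squares of both ENSC libraries, and *Pcdhb7*, *Pcdhb9*, *Pcdhb10*, *Pcdhb12* and *Pcdhb15* lie at 29 or less in both HC libraries and higher in cochlear ENSCs. The alpha and gamma rows, labelled as whole cluster, need not cover every isoform.

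The 19 beta genes lie within 220.6 kb between those clusters and share much of their sequence, with 88.0% to 98.1% of their 50-nt stretches unique. A 50-nt read from the rest cannot be placed uniquely when taken alone, without its mate. In the cochlea 7 were at least 3-fold lower in HCs (against 9.2% of all genes) and 0 higher (against 8.39%), 17 of 19 log2 ratios lay below 0, and the median was -1.34. Most of the 7 were weak in both libraries: 1 (*Pcdhb9*) was left with a floor of 100, 2 with a pseudocount of 20 and 3 when genes under 100 in every library were dropped. Over all genes, the count lower in cochlear HCs went from 1179 to 565, 795 and 1030 with these settings. In the vestibular system 2 were lower (against 14.3%) and 3 higher (against 13.8%), with a median of 0.33 that fell to 0.06 with the length and GC correction. Summed over the 19 genes, the signal was 2806 in cochlear HCs, 4659 in cochlear ENSCs, 3588 in vestibular HCs and 2008 in vestibular ENSCs. Cochlear ENSCs had the highest sum and vestibular ENSCs the lowest, and 18 of 19 genes were higher in cochlear than in vestibular ENSCs (median log2 ratio 1.04), where 6245 of all 12814 genes were and the median was 0. Vestibular ENSC ratios carried the GC trend described above (rho -0.453 for the ENSC comparison over 10475 genes), and the beta genes have 41.2% to 49.6% GC against a median of 48.8% over all genes. After correction for length and GC, 18 of 19 were still higher in cochlear ENSCs, with a median log2 ratio of 0.81.

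Single beta genes varied widely around these medians. *Pcdhb18* was the strongest beta gene per kilobase of exon in HCs of both organs, with a signal of 918 in cochlear HCs, 736 in cochlear ENSCs, 1244 in vestibular HCs and 224 in vestibular ENSCs. It was 5.55-fold higher in vestibular HCs than ENSCs and nearly level in the cochlea. *Pcdhb17*, its neighbour, was the strongest per kilobase in both ENSC libraries, with its highest signal in cochlear ENSCs, at 924 against 348 in cochlear HCs, 499 in vestibular HCs and 301 in vestibular ENSCs. *Pcdhb16* was flatter, with 507.5, 498, 434 and 293 in the usual order of libraries.

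*Pcdhb9* showed the steepest fall of the beta genes. Its signal was 26 in cochlear HCs, 415 in cochlear ENSCs, 29 in vestibular HCs and 167.5 in vestibular ENSCs. HCs were low in both organs, 15.95-fold under cochlear ENSCs and at least 5.49-fold under vestibular ENSCs. *Pcdhb13* was low only in cochlear HCs, at 22.5, against 167.5 in cochlear ENSCs, 77 in vestibular HCs and 63.25 in vestibular ENSCs. *Pcdhb6* was low only in vestibular ENSCs, at 70.5, against 191 in cochlear HCs, 276 in cochlear ENSCs and 304 in vestibular HCs. *Pcdhb21*, with 84.25, 100, 125 and 39.75 in the usual order, was 3.15-fold higher in vestibular HCs than ENSCs, which fell under the threshold with the length and GC correction (log2 1.11). *Pcdhb14* was high in both ENSC libraries (272 and 166) and lower in HCs (77.5 and 104).

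The remaining beta genes were weaker. *Pcdhb7*, *Pcdhb10*, *Pcdhb12* and *Pcdhb15* lay between 20 and 22.5 in HCs of both organs and between 23.75 and 89.5 in ENSCs. For *Pcdhb10* the cochlear fold was at least 2.74, so its place among the 7 lower genes rests on a value in the tied range. *Pcdhb20* had signals of 58.75, 172, 135 and 82.5 in the usual order, and *Pcdhb22* had 51, 129, 101 and 67. In both genes cochlear ENSCs were highest and cochlear HCs lowest, 2.923- and 2.53-fold apart, and in *Pcdhb5* the cochlear ratio was 2.11-fold in favour of ENSCs. *Pcdhb11* had 123, 185, 140.2 and 90.25 and *Pcdhb19* 224, 300, 189 and 150.5, and these 2 genes, *Pcdhb3* and *Pcdhb4* stayed under 2-fold in each HC to ENSC comparison. Over the 19 genes, the cochlear and vestibular log2 ratios had a Pearson r of 0.72 and a Spearman rho of 0.67, given as a description, since the genes share libraries, an array and similar sequence, and r was 0.60 over all genes.

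The comparison of the organs asked which adhesion genes set the cochlea apart within a cell population. Between HCs, 3 members passed 3-fold upward in the cochlea (6.52%, against 4.21% of all genes) and 5 lower (10.9%, against 5.09%). The higher ones were *Fat3*, *Pcdh7* and *Pcdh9*, and the lower ones *Pcdh20*, *Cdh11*, *Cdh18*, *Cdh20* and *Pcdhb13*. Between ENSCs, 8 were higher in the cochlea (17.4%, against 7.8%) and 5 lower (10.9%, against 7.94%). The higher ones were *Pcdh11x*, *Pcdh19*, *Fat3*, *Pcdh10*, *Pcdhb6*, *Pcdhb15*, *Pcdhb18* and *Pcdhb17*, and the lower ones *Dchs1*, *Cdh3*, *Cdh9*, *Pcdh1* and *Fat1*. With the length and GC correction the ENSC calls of *Pcdhb17*, *Pcdhb18*, *Pcdh1* and *Fat1* were lost and *Pcdh20* was added to the lower genes.

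**Figure D4:**
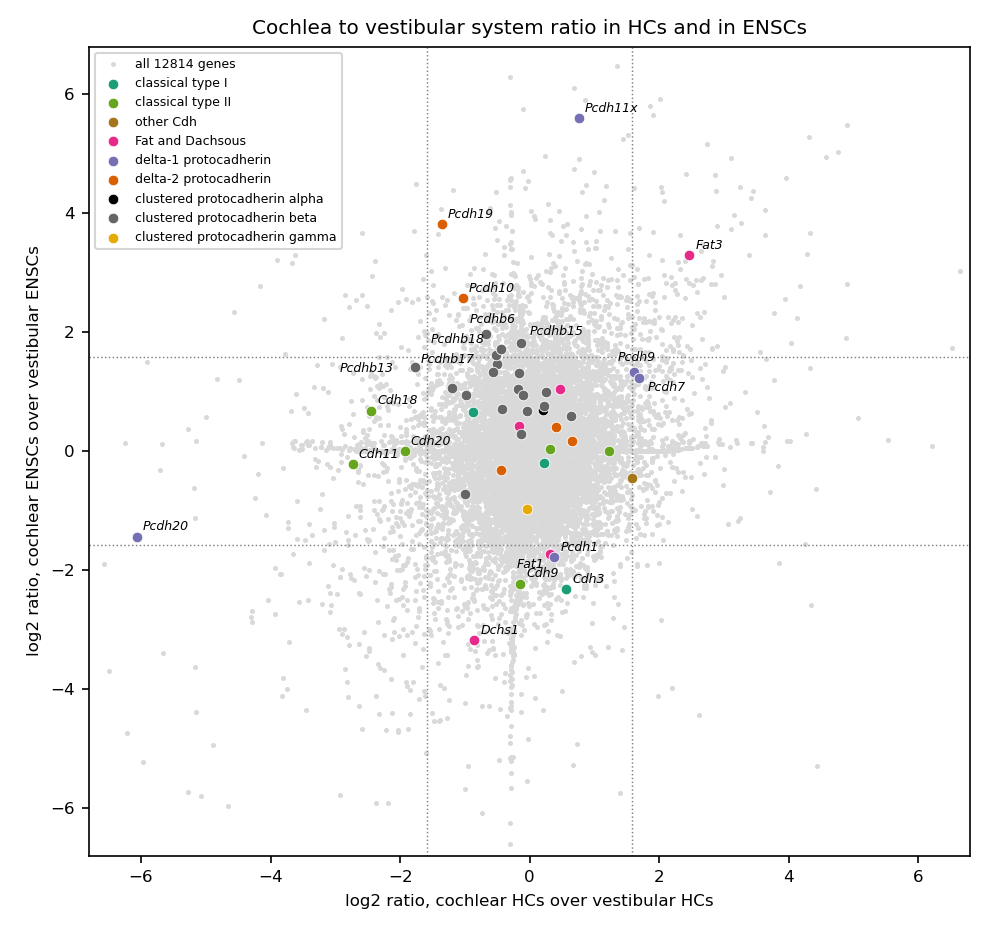
Log2 ratio of cochlear over vestibular signal in HCs (horizontal axis) and in ENSCs (vertical axis), 1 library per population, members coloured by class over all 12814 genes in grey (3 lie beyond the axes), dotted lines at 3-fold. *Fat3* is the only member past 3-fold on both axes, *Pcdh20* lies far left and *Pcdh11x* far up.

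The HC to ENSC ratio itself differed at least 3-fold between the organs for 22 members (47.8%, against 21.4% of all genes). In 16 it was higher in the vestibular system (34.8%, against 10.9%) and in 6 it was lower (13%, against 10.5%). Besides *Pcdh19*, *Pcdh11x* and *Pcdh20*, the 16 held *Pcdh10* (difference of log2 ratios 3.61), *Cdh18* (3.13), *Cdh11* (2.52), *Cdh20* (1.93) and 9 beta genes, led by *Pcdhb13* (3.18) and *Pcdhb6* (2.64). The 6 were *Cdh3* (-2.88), *Dchs1* (-2.33), *Pcdh1* (-2.15), *Cdh9* (-2.08), *Fat1* (-2.04) and *Cdh13* (-2.03). The difference of *Cdh13* fell under 3-fold with tied ranges at their top, those of *Dchs1* and *Pcdh1* with the length and GC correction (-1.26 and -1.05), and *Cdh9* was in the tied range in 3 libraries. That correction also took *Pcdhb21* from the 16 (1.42) and brought in *Cdh4* (2.28) and *Cdh8* (-1.88). The *Cdh8* value rests on signals at the floor of 20 in cochlear ENSCs and in both vestibular libraries. In 5 of the 6 listed with a lower ratio, all but *Cdh13*, vestibular ENSCs held the highest signal of the 4 libraries. The ENSC libraries also differed in marker genes of other cells: *Kdr*, the only gene of 6 endothelial markers with a row, was at 1462 in vestibular ENSCs and at 24.25 to 29.75 elsewhere, and the 6 Schwann cell and glia genes in the table summed to 2966 in cochlear HCs, 3013 in cochlear ENSCs, 829.5 in vestibular HCs and 3779 in vestibular ENSCs. *Mitf*, the only melanocyte marker with a row, was at 72.25, 244.25, 41.5 and 247.5 in the usual order, and *Cd68*, the only macrophage marker with a row, at 24.75 or less. The part of these markers in the results was not tested.

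The other genes of the adhesion system are given by list, beside a median of all genes that is 0 in the cochlea and -0.00 in the vestibular organ. Of 17 catenin and junction adaptor genes in the table, 3 were at least 3-fold higher in cochlear HCs (*Ctnnd2*, *Mllt4* and *Pvrl1*) and 1 was lower (*Ctnna1*), against 8.39% and 9.2% of all genes, with a median log2 ratio of 0.06. In the vestibular system 1 was higher (*Pvrl1*) and 5 were lower (*Ctnna1*, *Jup*, *Pkp1*, *Pkp3* and *Pvrl2*), against 13.8% and 14.3% of all genes, with a median of -0.87. *Ctnna1*, which encodes alpha-E-catenin that ties junctions to actin, had signals of 476 in cochlear HCs, 1438 in cochlear ENSCs, 489 in vestibular HCs and 3524 in vestibular ENSCs. *Pvrl1*, which encodes a nectin, had 740.5, 218, 305 and 90.5 in the same order and was the only gene of the list at least 3-fold higher in HCs of both organs. Of 10 desmosomal and other cadherin superfamily genes, 1 was higher and 2 were lower in cochlear HCs (all genes 8.39% and 9.2%), and 2 were higher and 4 lower in vestibular HCs (13.8% and 14.3%). *Celsr3*, a large cadherin of axon tracts, was the gene of that list at least 3-fold higher in both organs, with HC signals of 117 (cochlea) and 173 (vestibular system) beside 20.75 and 20 in ENSCs.

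The 14 genes of the Fat and Dachsous pathway were lower in HCs where they differed, as were most of the receptors above. In the cochlea 4 were at least 3-fold lower (against 9.2% of all genes) and 0 higher (against 8.39%), with a median of -0.26, and in the vestibular system 7 were lower (against 14.3%) and 0 higher (against 13.8%), with a median of -1.49. *Fjx1*, a Golgi kinase that modifies Fat and Dachsous, had 25 and 26 in HCs of the cochlea and vestibular system against 146 and 151.5 in ENSCs. The transcriptional co-activator *Wwtr1* had 187.5 and 216.5 in HCs against 823 and 1569.5 in ENSCs, and the kinase *Lats2*, which restrains it, had 88 and 67.5 against 625 and 546. The co-activator and the kinase were thus both low in HCs. Among 22 protocadherin effectors and regulators of the cluster, 1 was higher and 2 were lower in cochlear HCs (median 0.26), and 1 was higher and 5 were lower in vestibular HCs (median 0.22), against the shares of all genes just given. *Wasf1*, which drives actin branching, was higher in HCs of both organs and its relative *Wasf2* lower in both. Of 9 regulators of the cluster in that list, among them *Ctcf* and the cohesin genes *Rad21*, *Smc1a* and *Smc3*, which organize its promoters, 8 were under 2-fold apart between HCs and ENSCs in each organ, as were 39.4% of all genes. The exception was *Zfp143*, with 90.25 in cochlear HCs, 30.75 in cochlear ENSCs, 65.25 in vestibular HCs and 35.75 in vestibular ENSCs.

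**Figure D5:**
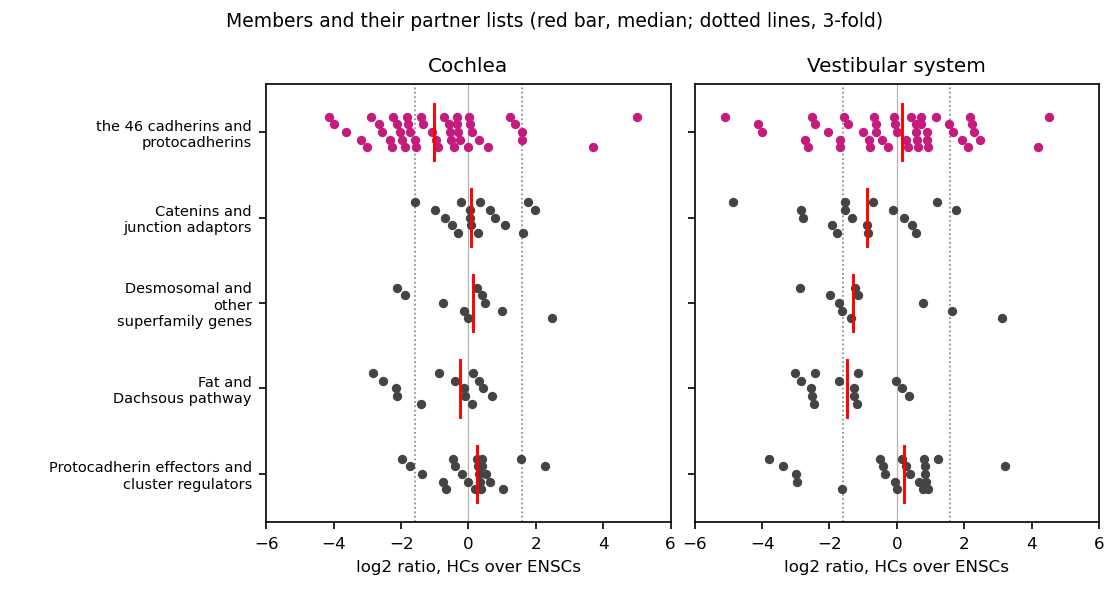
Log2 ratio of HC over ENSC signal in the cochlea (left) and the vestibular system (right) for the 46 members and the 4 partner lists, 1 point per gene, red bars at the medians, dotted lines at 3-fold. The members' median is -1.02 on the left and 0.14 on the right, and that of the Fat and Dachsous pathway is -0.26 and -1.49.

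Of the 46 members, 13 were under 3-fold apart in all 4 comparisons: *Cdh4*, *Cdh8*, *Cdh13*, *Cdh24*, *Pcdh18* and 8 beta genes. The other 33 (71.7%) passed in at least 1, as did 42.1% of all genes. Levels per kilobase of exon ranked *Cdh11* first in both ENSC libraries, followed by *Pcdhb17* in the cochlea (283 per kb) and *Cdh3* in the vestibular system (468 per kb), with *Fat1* next at 451 per kb. Rows that overlap members were low. The antisense *Gm15485* inside *Cdh2* was between 20 and 33.25, *Gm2366* on the strand opposite *Fat1* between 20 and 46, and *Gm16882* inside the gamma row between 76.5 and 98.75. *Gm10073*, next to *Cdh3* on the other strand, reached 460 in vestibular ENSCs, where *Cdh3* was also highest, against 22.5 to 29 elsewhere. No exonic base of *Cdh2* or *Cdh3* was shared with another annotated gene, against 3.30% for *Fat1* and 5.68% for the gamma row. The strand setting of the counting is not given in the sources used here, so reads from such shared bases cannot be told apart.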

How the data were processed

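Per the study's methods and the submitters' processing notes, the authors amplified RNA with the NuGEN Ovation system, used the first 50 nt of each read for TopHat alignment to mm9, obtained HTSeq counts for ENSEMBL genes, and applied quantile normalization and a floor of 20. Versions are not given in the sources used here. The deposited values are thus a normalized signal and no longer counts, and depth is unknown. Triplicates are mentioned in the series' design, while the table has 1 column per population, which may be a library, a pool or a mean. Each non-HC column was matched to the ENSC sample from its organ. Normalization removes any overall shift between populations.

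Log2 ratios of the deposited signals were computed with no pseudocount (Python 3.11.15, pandas 2.3.3), and members past 3-fold were counted beside all 12814 genes. Tied ranges were found where the median of the genes' highest signal in the other libraries collapsed. Length, GC content and positions came from a GENCODE annotation of mm9, found for 12799 genes and all 46 members, and 50-nt exon stretches were searched for other copies in that genome. The alternatives were a floor of 100, a filter at 100, a pseudocount of 20, a threshold of 2, centring on the median ratio, tied ranges set to their top, and a local regression on length and GC. Ratio scripts were tested on simulated data. Values in all libraries are given for non-clustered members at least 3-fold apart with a signal of at least 200 and for clustered members with a signal of at least 100, while other members are given by class or in a clause, some also with all 4 values. The members, lists and rules were chosen with earlier results of these data known.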

Additional observations from a re-analysis of the deposited data

Results flagged for a closer look

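For *Pcdh20* and *Pcdh11x* the HC library lay under the ENSC library in the cochlea and above it in the vestibular system, each by at least 3-fold. The vestibular minus cochlear difference of the log2 ratios was 4.62 for *Pcdh20*, from signals of 113.5 and 572 in cochlear HCs and ENSCs and 7597 and 1552 in vestibular HCs and ENSCs. It was 4.84 for *Pcdh11x*, from 225 in cochlear HCs, 1432 in cochlear ENSCs, 133 in vestibular HCs and 29.5 in vestibular ENSCs. With 1 library per population neither difference was tested. Corrected for length and GC the differences were 4.12 and 4.09, but the vestibular excess of *Pcdh11x* alone fell under 3-fold with that correction (log2 1.27) and with a floor of 100 (log2 0.41).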

How the results depend on the processing

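No paired analysis was possible because each comparison set 1 library against 1 other and no replicate numbers are shared, and no library could be left out. With a floor of 100, the members lower in HCs fell to 11 (cochlea) and 6 (vestibular system), and those higher in vestibular HCs to 5. Members lower in cochlear than vestibular HCs fell to 2 and those lower in cochlear than vestibular ENSCs to 3. Members with a ratio that differed between organs fell to 12. Counts over all 12814 genes fell as well, in the same order from 1179 to 565, 1837 to 971 and 1762 to 901. The last 3 fell from 652 to 244, 1018 to 517 and 2741 to 1252. A pseudocount of 20 left 3 members lower in cochlear than vestibular HCs and 3 lower in cochlear ENSCs. The counts over all genes fell with it from 652 to 396 and from 1018 to 682. A threshold of 2 raised the members higher in cochlear HCs than ENSCs to 6. It raised those higher and lower in cochlear than vestibular HCs to 5 and 8, and those higher in cochlear ENSCs to 17. Over all genes the counts rose in that order from 1075 to 2110, 540 to 1347, 652 to 1343 and 999 to 2213. The other counts stayed within 1.5 times their value, and none of the log2 ratios of the 29 named members changed sign past the threshold. Of 58 HC to ENSC log2 ratios of these members, 5 crossed the threshold with the floor of 100, 3 with the pseudocount, 7 with the threshold of 2, 2 with centring, 3 with the length and GC correction and 0 with the filter or the tied ranges. That correction took *Pcdh11x*, *Pcdhb21* and *Cdh2* under the threshold (log2 1.27, 1.11 and 1.49). Values near the floor limit what can be said of weak members, and without replicates no count carries an error.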
